A study of Mus musculus with 9 samples.

Results

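Open chromatin that lies between genes but close to one was described in mouse LSK cells, the lineage-negative, Sca-1-positive, Kit-positive marrow fraction that holds haematopoietic stem and early progenitor cells. Peaks of all 9 ATAC-seq libraries that shared 1 bp were merged, and a region was kept when its midpoint lay outside every named GRCm38 protein-coding gene and 1 to 50 kb from the nearest one. Genes named only by a Gm number or a Rik clone did not count as protein-coding genes in this choice. Nor did Grpel1, which has no gene type in the annotation used. The rule uses position alone, and it kept 18295 of 74587 autosomal regions (24.5%). The other autosomal regions were 13684 within 1 kb of a gene end, 31381 inside a gene and 11227 more than 50 kb from any gene.

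Open DNA between genes is known to hold enhancers, insulators and the starts of non-coding transcripts. An enhancer binds transcription factors and raises the activity of a gene at a distance, and many enhancers are used in one cell type only, while promoters are open in most cell types. In LSK cells, enhancers near genes such as Gata2 are known to be bound by factors of the ETS, RUNX and GATA families. The nearest gene is a positional label and need not be the gene that an element acts on.

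ATAC-seq reads open DNA through the insertions of the Tn5 transposase, and 50000 cells went into each library, per the labels. Each of Bcat_KO, in which β-catenin is the target, HOXA9_KO, PRMT1_KO and WT had 2 libraries, and the dKO, with β-catenin and Hoxa9 both targeted, had 1. The mutants are named KO in the titles but knockdown in the genotype tags. β-catenin carries canonical Wnt signals to the nucleus, Hoxa9 is a homeobox factor that sustains self-renewal, and Prmt1 places most asymmetric dimethyl marks on arginine. The series text gives primary transplanted Prmt1KO mice as the source of LSK cells, and the labels do not say which alleles, ages or transplants stand behind the other groups. No label ties the replicates to different animals. The p-values therefore measure only the spread between these samples, which may be technical.

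The lists held 39885 and 41349 peaks in HOXA9_KO, 43250 and 45460 in Bcat_KO, 44513 and 39881 in PRMT1_KO, 10639 in the dKO and 35581 and 28325 in WT. Background depth, inferred from peak fold and p, was 8.27 to 11.2 reads per kb in the 6 single-mutant libraries, 2.41 in the dKO and 7.38 and 6.29 in WT. Peaks on chromosome Y before 90 Mb numbered 12 to 16 in the single mutants, 6 in the dKO and 0 in both WT libraries, so sex and genotype cannot be told apart. Kit, Cd34 and Flt3, which are active in LSK cells, had a peak within or at the ends of the gene in 8 of 8 paired libraries, Procr in 4 and Ly6a, which encodes Sca-1, in 0. Among genes of mature or other cells, Cd3e and Ngp had none in any paired library, while Klf1, Col1a1 and Pecam1 had one in 8 of 8, Cdh5 in 7, Cd79a in 5 and Ltf in 3. In bulk cells, fewer cells with an open site and less opening per cell cannot be told apart.

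Some of the intergenic regions overlapped the start window of a non-coding transcript or a microRNA hairpin, and 4 start windows are printed because the regions that overlap them are described below. Each window runs from 250 bases before to 50 bases after the start of the transcript in RefSeq (GRCm38.p6), 5′ to 3′ on the strand of the transcript. Capitals mark short letter matches, on either strand, to RUNX (TGTGGTT), TCF/LEF (ATCAAAG), NFY (CCAAT) and SP/KLF (GGGCGG) motifs. The 4 were picked after their values were seen. Snhg8, a host gene of small nucleolar RNAs, is the strongest of the lncRNA starts with a full match of the window. Gm16897 lies downstream of Cd34, The Gm30296 window lies inside a region opened in Bcat_KO, and the Gm34441 window is overlapped by a region closed in Bcat_KO.
Snhg8, chr3:123508287-123508586, minus strand: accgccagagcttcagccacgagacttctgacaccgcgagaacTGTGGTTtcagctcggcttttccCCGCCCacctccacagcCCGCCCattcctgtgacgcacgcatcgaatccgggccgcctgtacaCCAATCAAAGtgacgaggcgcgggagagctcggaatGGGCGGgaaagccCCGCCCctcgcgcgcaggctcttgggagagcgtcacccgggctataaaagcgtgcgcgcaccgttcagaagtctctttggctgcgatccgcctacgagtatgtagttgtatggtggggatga
Gm16897, chr1:194976910-194977209, minus strand: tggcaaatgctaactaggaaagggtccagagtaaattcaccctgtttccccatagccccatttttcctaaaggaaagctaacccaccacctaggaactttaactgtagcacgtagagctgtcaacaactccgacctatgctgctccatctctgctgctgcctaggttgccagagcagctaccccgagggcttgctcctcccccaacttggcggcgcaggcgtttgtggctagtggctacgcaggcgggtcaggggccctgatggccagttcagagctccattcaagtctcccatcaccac
Gm30296, chr12:102730437-102730736, plus strand: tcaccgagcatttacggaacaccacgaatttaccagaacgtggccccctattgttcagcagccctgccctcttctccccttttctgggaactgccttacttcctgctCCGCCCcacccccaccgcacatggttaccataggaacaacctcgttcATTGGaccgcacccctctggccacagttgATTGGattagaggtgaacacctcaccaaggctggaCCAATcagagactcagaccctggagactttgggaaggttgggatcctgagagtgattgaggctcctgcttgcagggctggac
Gm34441, chr6:55536793-55537092, plus strand: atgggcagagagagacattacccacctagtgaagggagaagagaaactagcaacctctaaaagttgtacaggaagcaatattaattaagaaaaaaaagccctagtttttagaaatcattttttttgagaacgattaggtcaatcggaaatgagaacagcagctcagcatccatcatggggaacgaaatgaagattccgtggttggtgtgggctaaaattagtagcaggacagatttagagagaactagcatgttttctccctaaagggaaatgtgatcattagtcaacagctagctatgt
The Snhg8 window held 30 CpG dinucleotides, against 8 in Gm16897, 8 in Gm30296 and 4 in Gm34441, and the mean over all 32851 RefSeq windows was 12.4. In the Snhg8 window the NFY match at bases 130 to 134 overlaps the TCF/LEF match at bases 133 to 139. The Gm30296 window held 3 NFY matches and 1 SP/KLF match, and the other 2 windows held no match to any of the 11 motifs searched.

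Mature microRNAs of 4 of the 7 hairpins that lay wholly inside a region open in every paired library are printed next, because the ranks of their regions are given below. The other 3 are Mir8096, Mir760 and Mir7671. Capitals mark the seed, bases 2 to 8, through which a microRNA pairs with its targets.
mmu-miR-155-5p: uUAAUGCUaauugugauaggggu
mmu-let-7i-5p: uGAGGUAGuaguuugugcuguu
mmu-miR-132-3p: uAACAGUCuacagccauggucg
mmu-miR-212-3p: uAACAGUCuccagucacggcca
miR-132-3p and miR-212-3p share the seed AACAGUC, and their hairpins lie in one region. The others each have a seed of their own.

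Most of these intergenic regions were found in few libraries. Of 18295, 6310 (34.5%) had a peak in exactly 1 of the 8 paired libraries, 3000 (16.4%) in all 8, and 784 in all 9. A further 195 (1.07%) were listed in the dKO alone. Regions within 1 kb of a gene end were in all 8 libraries in 63.6% of cases, regions inside genes in 17.6% and regions beyond 50 kb in 13.0%. The intergenic regions were narrow, with a median width of 338 bases, against 826 at gene ends, 341 inside genes and 301 beyond 50 kb. Those found in all 8 libraries had a median width of 730 bases.

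**Figure D1:**
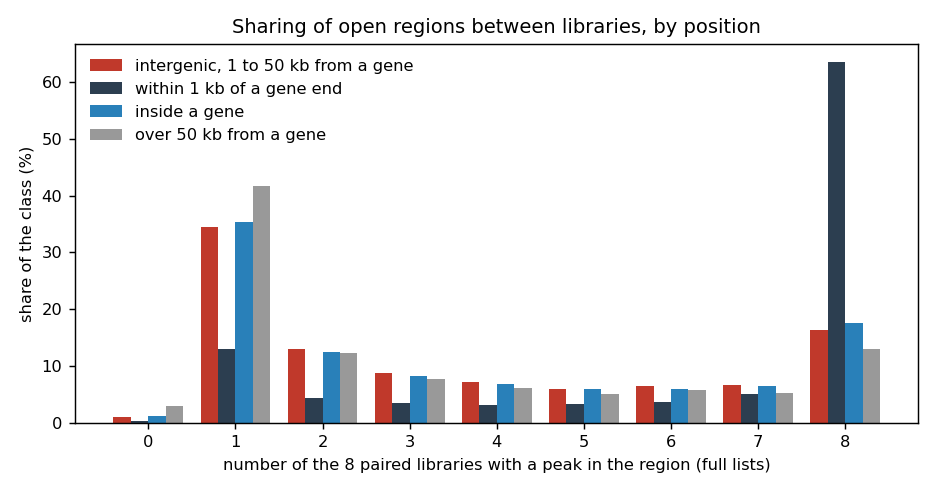
Share of each position class (vertical axis, %) by the number of the 8 paired libraries with a peak in the region (horizontal axis), from the full lists. Intergenic regions near genes peak at 1 library (34.5%) and again at 8 libraries (16.4%), while 63.6% of gene-end regions were in all 8.

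Around the distance limits, with no test, 17.6% of 301 regions at 1 to 1.2 kb were in all 8 libraries, against 12.7% of 276 gene-end regions at 0.8 to 1 kb. At the far limit the shares were 15.7% of 669 regions at 45 to 50 kb and 20.4% of 599 at 50 to 55 kb.

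At equal list length, with each list held to the 28325 peaks of highest −log10 p, 29.8% ± 0.655 of the intergenic regions had a peak in a library (SD, n = 8). The share was 68.9% ± 1.56 at gene ends, 30.0% ± 0.685 inside genes and 25.2% ± 0.950 beyond 50 kb. Intergenic regions near genes were detected 39.0 percentage points less often than gene ends, in 8 of 8 libraries (exact sign-flip permutation test, two-sided, adjusted p = 0.0117 over the 3 classes). Against regions beyond 50 kb they were detected 4.63 points more often, again in 8 of 8 (exact permutation, adjusted p = 0.0117). The difference from regions inside genes, −0.189 points, did not pass (exact permutation, adjusted p = 0.320, lower in 6 of 8). The smallest p that 8 libraries allow is 0.00781. With peaks limited to −log10 q of 5 or more, the difference from regions beyond 50 kb was 1.39 points and no longer passed, and that from regions inside genes was −1.84 points and passed.

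Their peaks were weaker than those at gene ends. The median percentile rank, where 100 is the strongest peak of the shortened list, was 34.1 points lower than at gene ends and 1.72 points lower than inside genes, each in 8 of 8 libraries (exact permutation, adjusted p = 0.0117). Against regions beyond 50 kb the difference was −0.335 points (exact permutation, adjusted p = 0.203, lower in 7 of 8), and with the lists at their deposited length it turned to 1.91 points higher and passed (exact permutation, adjusted p = 0.00781). It passed as a lower rank when peaks were ranked by fold, at −1.72 points (exact permutation, adjusted p = 0.0117). Ranked by fold instead of p, the difference from regions inside genes was −0.754 points and did not pass.

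**Figure D2:**
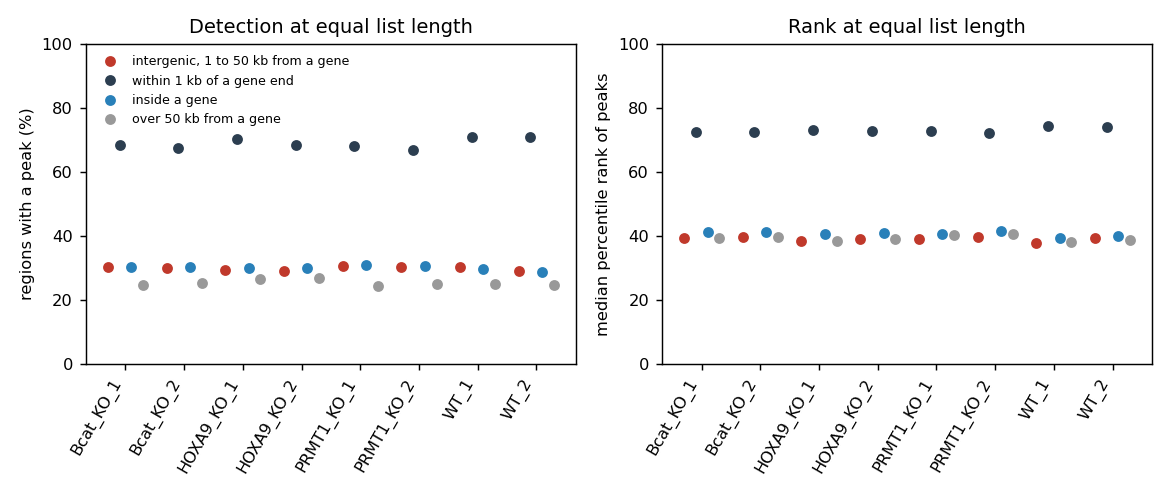
Share of regions with a peak (left, %) and median percentile rank of those peaks (right, 100 is strongest) in each of the 8 paired libraries at equal list length; each point is 1 library and 1 position class. Gene ends stand apart at 66.9 to 70.9% detected, and intergenic regions near genes lie at 29.0 to 30.7%.

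Detection at different distances within the 1 to 50 kb range was close at equal list length. Regions at 1 to 5 kb were detected at 29.6% ± 0.753, those at 5 to 10 kb at 30.2% ± 0.825, those at 10 to 20 kb at 30.4% and those at 20 to 50 kb at 29.4% ± 0.745 (SD, n = 8). The nearest bin minus the farthest was 0.190 points (exact sign-flip permutation, two-sided, p = 0.609, positive in 5 of 8). Ranked by fold, the sign of this difference turned, to −2.39 points, and it passed (exact permutation, p = 0.0156).

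On average, libraries of a genotype shared more of the intergenic regions than libraries of different genotypes, but the WT pair did not stand out. The Jaccard index, shared regions over all regions of 2 shortened lists, was 0.617 between the Bcat_KO libraries, 0.620 between the HOXA9_KO libraries, 0.653 between the PRMT1_KO libraries and 0.527 between the WT libraries. Its mean within genotypes was 0.604, against 0.532 between them (exact permutation over 105 divisions of 8 libraries into 4 pairs, p = 0.00952, the smallest possible). WT replicate 1 was the exception among the nearest neighbours, at 0.541 with PRMT1_KO replicate 1 and 0.537 with PRMT1_KO replicate 2. Between genotypes, Bcat_KO and PRMT1_KO were most alike at 0.597, followed by HOXA9_KO with Bcat_KO at 0.562 and with PRMT1_KO at 0.527. The indices with WT were 0.503 for Bcat_KO, 0.482 for HOXA9_KO and 0.521 for PRMT1_KO. Within minus between genotypes, the index differed by 0.0719 for intergenic regions near genes, 0.0731 for regions inside genes, 0.0860 beyond 50 kb and 0.0171 at gene ends, with no test of these differences.

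The share of the strongest peaks that fell in intergenic regions near genes moved by under 1 percentage point between libraries. It was 19.5 and 19.6% in HOXA9_KO, 20.3 and 20.3% in Bcat_KO, 20.5 and 20.5% in PRMT1_KO and 20.3 and 19.8% in WT. HOXA9_KO libraries were below all others, and the WT libraries spanned the gap between HOXA9_KO and the other mutants. The spread between genotypes was larger than in most other divisions of the libraries (exact permutation over 105 divisions, p = 0.0190). This p was 0.0667 with the lists as deposited and 0.0857 to 0.162 without any one library of Bcat_KO, HOXA9_KO or PRMT1_KO or without WT replicate 2. In the full lists, 8120 and 8413 of the regions had a peak in HOXA9_KO, 9264 and 9696 in Bcat_KO, 9758 and 8274 in PRMT1_KO and 7348 and 5312 in WT (exact permutation, p = 0.0667), in an order close to that of list length.

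The detection of upstream against downstream regions lay apart by genotype in these 8 libraries. This was noticed before the comparison was made, so the genotype p below is no independent test of it. Of the regions, 7647 lay upstream and 6674 downstream of the nearest gene, and 3974 had a gene with no strand in the tables used. Upstream regions were detected more often than downstream ones in Bcat_KO, by 0.489 and 0.443 points, and in PRMT1_KO, by 1.09 and 0.923 points. They were detected less often in HOXA9_KO, with −0.670 and −0.516 points, and in WT, with −1.74 and −2.23 points. The 4 genotypes did not overlap (exact permutation over 105 divisions, p = 0.00952, a comparison added after the values were seen), and without WT replicate 2 the p was 0.105. Over all 8 libraries the difference was −0.276 points (exact sign-flip permutation, two-sided, p = 0.547), and with −log10 q of 5 or more it was −1.74 points (exact permutation, p = 0.0234). List length and depth also order the libraries with WT lowest, and their part in this difference was not tested. Leaving out WT replicate 2 also lengthened the shortened lists from 28325 to 35581 peaks.

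**Figure D3:**
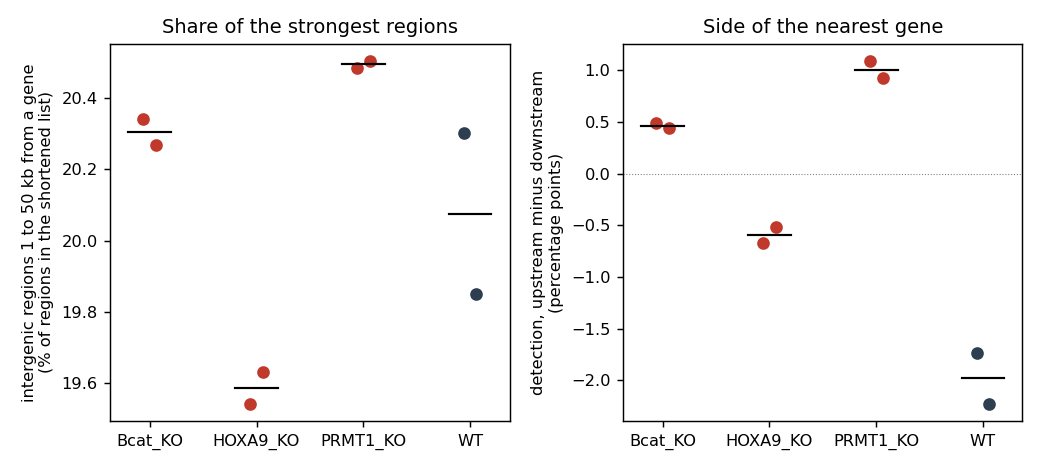
Left, share of the regions in the shortened list that are intergenic and 1 to 50 kb from a gene (%); right, detection of upstream minus downstream regions (percentage points). Points are libraries and bars are group means; neither axis starts at 0. HOXA9_KO is lowest on the left at 19.5 and 19.6%, and WT is lowest on the right at −1.74 and −2.23 points.

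The strongest intergenic regions ranked high in all 9 libraries. The best mean rank belonged to a region 29.4 kb downstream of Rpusd4, a pseudouridine synthase gene (chr9:35305219-35305591), with peak ranks of 3 and 3 in HOXA9_KO, 3 and 2 in Bcat_KO, 3 and 3 in PRMT1_KO, 4 in the dKO and 4 and 4 in WT. Regions near Sfi1, which encodes a centrosome protein, and near Tmem196 followed, with ranks of 13 to 17 in the paired libraries and of 19 and 14 in the dKO. A region 15.6 kb from Adgre5, the CD97 adhesion receptor, ranked 24 to 32 in the paired libraries, and one 21.9 kb from Ly6c2, a surface antigen of monocytes, ranked 23 to 41. The rest of the 10 lay nearest to Tmem125, Zfp825, Zfp619, Prss12 and Cct8l1. Of the 10, those nearest Rpusd4, Tmem196 and Adgre5 were 227 to 373 bases wide with folds of 40.0 to 60.3 in the paired libraries, while folds of the other 7 lay between 13.5 and 22.3. No list of repeats or of sequence that maps poorly was applied. The 5 strongest in the dKO lay near Rpusd4, Tmem196, Adgre5, Sfi1 and Tmem125.

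Regions at an annotated transcript start were more often shared than the other intergenic regions, as a description with no test. A RefSeq start window overlapped 626 of them by at least 1 base, for 503 lncRNA genes and 139 protein-coding genes with Gm or Rik names. Genes with no type in the annotation used are not in these counts. An example is Grpel1, whose whole window lay in a region labelled by Tada2b, 8.53 kb away. With such a window, 49.4% were in all 8 libraries, against 15.2% of the 17669 without one. The start base itself lay inside 539 regions, of which 54.5% were in all 8. They were detected at 60.4% ± 1.66 per library, against 28.8% ± 0.682 without a window (SD, n = 8). Their median percentile rank was 60.5 ± 1.50, against 37.7 ± 0.760, and their median width was 663 bases, against 333. In the dKO 21.6% had a peak, against 6.24% without a window. Of the 100 strongest intergenic regions 31 overlapped such a window, and 168 of the strongest 1000.

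The region over the Snhg8 start, 2.07 kb from Prss12, ranked 95 and 136 in HOXA9_KO, 88 and 273 in Bcat_KO, 191 and 211 in PRMT1_KO, 209 in the dKO and 59 and 117 in WT. Both PRMT1_KO libraries ranked it below WT, and the HOXA9_KO and Bcat_KO ranks overlapped those of WT. Chaserr, a lncRNA known to restrain the neighbouring Chd2 gene, had a region over its start with ranks of 205 and 210 in HOXA9_KO, 195 and 226 in Bcat_KO, 89 and 138 in PRMT1_KO, 2727 in the dKO and 784 and 452 in WT. All 6 single-mutant libraries ranked it above both WT libraries, and the dKO ranked it lowest. Over the start of Gm16897, whose window is printed above, the region 15.4 kb downstream of Cd34 ranked 1272 and 1963 in HOXA9_KO, 1806 and 1438 in Bcat_KO, 1971 and 3344 in PRMT1_KO, 1121 in the dKO and 764 and 900 in WT. Cd34 encodes a sialomucin of stem and progenitor cells, and both WT libraries ranked this site above all mutants. These ranks are descriptions, since 2 libraries against 2 cannot give a p under 0.333 for a single region.

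Motif letters could be counted only in the RefSeq start windows, of which 505 were covered over at least 200 of 300 bases. ETS letters (GAGGAAG) were in 20.8% of these windows, against 13.6% of all 32851 windows. CTCF letters (CCANNAGNNGGC) were in 6.93%, against 2.43%, RUNX letters in 8.51%, against 5.27%, and SP/KLF letters in 43.0%, against 35.7%. Most of these starts are of lncRNA genes, and over the 11588 lncRNA windows ETS letters were in 13.7%, CTCF letters in 2.58%, RUNX letters in 6.29% and SP/KLF letters in 16.3%, with a mean of 7.01 CpG, against 14.0 in the covered windows. NFY letters were in 34.7%, against 37.4%, and the other motifs, the GATA factors (AGATAAG), E-box (CAGATG), AP-1 (TGA and TCA 1 base apart), CEBP (TTGCNNAA), TCF/LEF and HOX-PBX (TGATTNAT), lay between 1.98 and 15.8%, against 3.04 and 17.2%. Within the covered windows, ETS letters were in 17.2% of 319 in regions open in all 8 libraries and in 26.9% of 186 in regions open in fewer, while SP/KLF letters were in 50.5% and 30.1%. Both strands were searched, matches of different motifs may overlap, and a match is a run of letters, not a bound site.

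Hairpins of 14 microRNAs overlapped 13 of the regions by at least 1 base, out of 919 autosomal hairpins, of which 95 overlapped an open region of any class. The 8 that overlapped regions open in all 8 libraries were those of Mir8096, Mir760, Mir210, Mirlet7i, Mir7671, Mir212, Mir132 and Mir155. All but Mir210 lay wholly inside the region, and Mir210 overlapped its region by 7 of 110 bases. Mir210 is known to be induced by low oxygen, and the region that touches it ranked 2403 and 3208 in HOXA9_KO, 2487 and 3254 in Bcat_KO, 3454 and 3689 in PRMT1_KO and 1646 and 2860 in WT. Mirlet7i, of the let-7 family that represses growth genes, lay in a region ranked 9719 and 7110 in HOXA9_KO, 13594 and 11563 in Bcat_KO, 8809 and 8368 in PRMT1_KO and 6383 and 7115 in WT. Both Bcat_KO libraries ranked it below all the others. Mir155, a microRNA of blood and immune cells, lay in a region ranked 23767 and 15962 in HOXA9_KO, 21688 and 17406 in Bcat_KO, 12433 and 17582 in PRMT1_KO and 19608 and 14891 in WT, and the groups overlapped. The region that holds Mir212 and Mir132 ranked 28462 and 18287 in HOXA9_KO, 12797 and 10904 in Bcat_KO, 15711 and 15155 in PRMT1_KO and 17479 and 13539 in WT, lowest in the HOXA9_KO libraries. In the dKO list, of these 8 hairpins only the regions of Mir760 and Mir7671 had a peak.

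Near genes of blood cells, the regions were many but mostly not shared by all libraries. Of 20 transcription factors of stem and progenitor cells, 19 were the nearest gene of at least 1 region, with 80 regions in all, and 13 of these (16.2%) were in all 8 libraries, close to the 16.4% over all 18295. Hlf, a factor of stem cell quiescence, had a region 27.1 kb upstream with ranks of 4319 and 4411 in HOXA9_KO, 8101 and 6322 in Bcat_KO, 6672 and 3889 in PRMT1_KO and 5759 and 7511 in WT. A region 5.42 kb upstream of Mecom, which encodes the stem cell factor Evi1, ranked 7627 and 5880 in HOXA9_KO, 12904 and 6179 in Bcat_KO, 8145 and 9366 in PRMT1_KO and 8230 and 7849 in WT. For both genes the HOXA9_KO libraries ranked the region above both WT libraries, while the Bcat_KO and PRMT1_KO ranks overlapped those of WT.

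Fli1, an ETS factor of blood and endothelium, had 3 regions in all 8 libraries, and the strongest, 12.9 kb away, ranked 4239 and 4518 in HOXA9_KO, 8027 and 5330 in Bcat_KO, 11487 and 9114 in PRMT1_KO and 14666 and 13711 in WT. All 6 single-mutant libraries ranked it above WT. The region 27.6 kb upstream of Ikzf1, a lymphoid and progenitor factor, ranked 7128 and 8351 in HOXA9_KO, 8801 and 9166 in Bcat_KO, 8706 and 12036 in PRMT1_KO, 2213 in the dKO and 8768 and 10247 in WT. A site 4.04 kb upstream of Gata2, the GATA factor of stem cells, ranked 20034 and 18585 in HOXA9_KO, 17541 and 21492 in Bcat_KO, 29810 and 28494 in PRMT1_KO and 15274 and 15204 in WT. Both PRMT1_KO libraries ranked the Gata2 site lowest and both WT libraries ranked it highest.

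Among LSK surface genes, 9 of 14 had a region and 4 of 29 regions were in all 8 libraries. Cxcr4, the receptor that holds stem cells in the marrow, had 9 regions, and the strongest, 22.7 kb upstream, ranked 5624 and 3965 in HOXA9_KO, 7541 and 8390 in Bcat_KO, 5035 and 4026 in PRMT1_KO, 5691 in the dKO and 7044 and 8586 in WT. HOXA9_KO and PRMT1_KO libraries ranked it above WT, and Bcat_KO overlapped WT. Cd34 had 8 regions and Slamf1, a marker of long-term stem cells, had 3.

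Genes of the pathways of the mutated genes are also described by counts, with no test. Of 18 genes of the Wnt pathway, 14 had a region, and 5 of 36 regions (13.9%) were in all 8 libraries, near the 16.4% over all regions. One of them lay 18.2 kb upstream of Ctnnb1, which encodes β-catenin, with ranks of 13580 and 22035 in HOXA9_KO, 9551 and 15495 in Bcat_KO, 23797 and 16249 in PRMT1_KO and 12543 and 7263 in WT. The strongest Wnt region lay 21.5 kb upstream of Tcf7l1, a β-catenin partner that acts mostly as a repressor, and ranked 2761 and 2745 in HOXA9_KO, 5666 and 1065 in Bcat_KO, 4149 and 3763 in PRMT1_KO and 9727 and 7114 in WT, with every single mutant above WT. Of 17 HOX genes and cofactors, 6 had a region, and 2 of 22 regions were in all 8 libraries, both near Meis1, the cofactor of Hoxa9. The stronger Meis1 region, 2.98 kb downstream, ranked 15817 and 18466 in HOXA9_KO, 14006 and 13361 in Bcat_KO, 12404 and 17316 in PRMT1_KO and 15977 and 20665 in WT. For the arginine methyltransferases, 5 of 9 genes had a region and 0 of 8 regions were in all 8 libraries.

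For lineage genes the counts are small and are given as a description, beside 16.4% over all 18295 regions. All 8 libraries shared 12 of 35 regions near myeloid genes (34.3%), 4 of 14 near B lymphoid genes, 7 of 27 near T and NK genes, 1 of 13 near erythroid and megakaryocyte genes, 4 of 24 near stroma and endothelium genes and 1 of 11 near replication and repair genes. Csf2ra, a chain of the GM-CSF receptor, held 4 of the 12 myeloid ones, and the strongest ranked 315 and 263 in HOXA9_KO, 190 and 213 in Bcat_KO, 434 and 450 in PRMT1_KO, 615 in the dKO and 2028 and 236 in WT. Only WT replicate 1 stood apart there. Klrb1c, the NK receptor NK1.1, also had 4, and its strongest ranked 6319 and 3481 in HOXA9_KO, 2909 and 5112 in Bcat_KO, 3076 and 3091 in PRMT1_KO, 5094 in the dKO and 1876 and 4028 in WT. Cebpa and Cebpb, which direct the granulocyte and macrophage programme, had 2 each. Near Pdgfrb, a receptor of stromal cells, 1 region ranked 27566 and 31604 in HOXA9_KO, 6587 and 11592 in Bcat_KO, 7155 and 9645 in PRMT1_KO and 33581 and 25391 in WT, so that the Bcat_KO and PRMT1_KO libraries lay apart from the others. The listed genes of stroma and endothelium were not at 0, since Col1a1 and Pecam1 had a peak in 8 of 8 libraries and Cdh5 in 7. The part of such cells in this rank was not tested.

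By count alone, the genes with the most regions in all 8 libraries were Scaf8 and Snx5 with 6 each, then Usp6nl, Azin1, S1pr1, Bhlhe40, Ifnz and Nid1 with 5, and Pdia4 and Fos are 2 of 21 genes with 4. S1pr1 encodes a receptor that guides blood cells between marrow, blood and lymph. The genes with most regions of any kind were Speer4d and Speer4e, of a multicopy testis family, with 40 each and 0 in all 8 libraries.

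**Figure D4:**
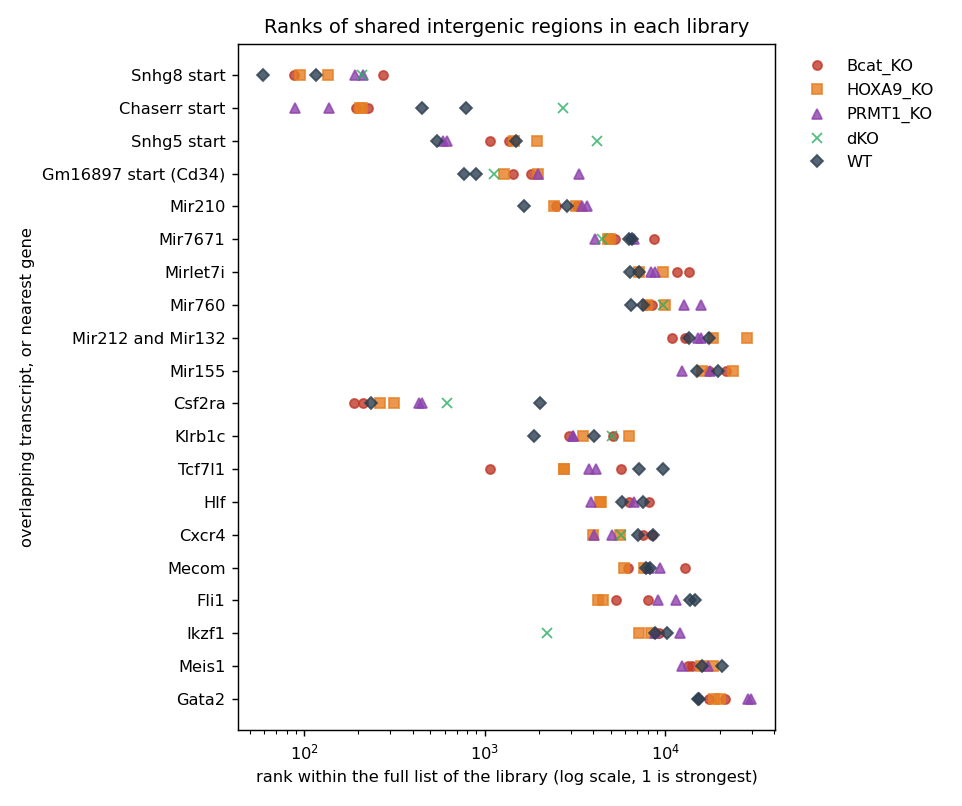
Rank of 20 shared intergenic regions in each library (horizontal axis, log scale, 1 is strongest), named by a transcript the region overlaps or by the nearest gene; symbols stand for groups, and a missing dKO cross means no listed peak. The Snhg8 start ranks 59 to 273 in all 9 libraries. The Fli1, Tcf7l1 and Chaserr regions rank higher in all single mutants than in WT, and the Gm16897, Mir760 and Gata2 regions rank lower in all of them. The share of all intergenic regions with such an order is not given.

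Differences between each mutant and WT were counted by a fixed rule at equal list length. A region counted as opened when it was among the first 14162 peaks of both mutant lists and in neither shortened WT list, and as closed in the reverse case. No p is given for a region, as above. With peaks of −log10 q of 5 or more, most of these calls were lost: of the opened regions 10 of 38 in Bcat_KO, 4 of 39 in HOXA9_KO and 5 of 23 in PRMT1_KO remained, and of the closed ones 2 of 11, 2 of 26 and 0 of 6. Opened regions were more numerous than closed ones in every mutant, but with −log10 q of 5 or more HOXA9_KO had 11 of each. Of the 8 libraries, the 2 of WT had the lowest depth, and the part of depth in this imbalance was not tested.

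In Bcat_KO, 38 intergenic regions near genes were opened (0.208%; 0.156% of all 74587 autosomal regions) and 11 were closed (0.0601%; 0.0456% of all regions). In HOXA9_KO, 39 were opened (0.213%; 0.263% of all) and 26 closed (0.142%; 0.0912% of all). In PRMT1_KO, 23 were opened (0.126%; 0.106% of all) and 6 closed (0.0328%; 0.0362% of all). The share was above that of all regions in 4 of these 6 counts and below it for opened regions in HOXA9_KO and closed regions in PRMT1_KO, with no test. Intergenic regions near genes made up 19.9% of opened and 38.2% of closed regions in HOXA9_KO, 32.8% and 32.4% in Bcat_KO and 29.1% and 22.2% in PRMT1_KO, beside 24.5% of all regions. The 3 comparisons share their WT libraries. Many opened regions were also in all 4 shortened lists of the other single mutants. These were 23 of 38 in Bcat_KO, 20 of 39 in HOXA9_KO and 14 of 23 in PRMT1_KO. Those in none of the 4 lists numbered 2, 2 and 0, in the same order. The matching counts over all opened autosomal regions were not made, so these counts do not set intergenic regions apart. Leaving out WT replicate 2 lengthens the shortened lists from 28325 to 35581 peaks, so the rule changes with it. All counts moved by over 1.5 times when 1 library of the pair was left out, up to 156 opened and 131 closed in HOXA9_KO, 129 and 87 in Bcat_KO and 115 and 93 in PRMT1_KO, each without WT replicate 2.

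The strongest opened region in Bcat_KO and in PRMT1_KO lay 14961 bases downstream of Dpy19l2, a gene of sperm head formation (chr9:24542013-24542160). Its fold over local background was 44.2 in HOXA9_KO replicate 2, 41.8 and 46.7 in Bcat_KO and 44.3 and 49.2 in PRMT1_KO, and no peak was listed in HOXA9_KO replicate 1, the dKO or either WT library. A region 7.39 kb downstream of Tra2a, a splicing regulator (chr6:49236451-49236609), had folds of 21.8 in HOXA9_KO replicate 2, 19.1 and 24.6 in Bcat_KO and 19.6 and 19.3 in PRMT1_KO. A region 11.0 kb downstream of Pira2, an activating receptor of myeloid cells (chr7:3825610-3825920), had folds of 10.9 in HOXA9_KO replicate 2, 12.5 and 12.1 in Bcat_KO and 12.3 and 13.6 in PRMT1_KO. Both were missing from the same 4 libraries as the Dpy19l2 region. The regions near Dpy19l2, Tra2a and Pira2 were only 148, 159 and 311 bases wide. The shortest peak of a list was 126 to 143 bases in the libraries that listed them. It was 153 bases in HOXA9_KO replicate 1, 183 and 164 in WT and 191 in the dKO. The Dpy19l2 region was thus narrower than any peak listed in the 4 libraries without it, and the Tra2a region narrower than any in WT or the dKO. No list of repeats or of sequence that maps poorly was applied. The parts of mapping and of shortest peak length in these calls were not tested. Of 1088 intergenic regions with a peak in exactly 5 paired libraries, 108 had the set of 5 that listed these 3. Over the 56 sets of 5 libraries seen, the median was 9 regions and the most was 118, so this set was among the larger ones. These 3 were the ones among the 108 with a fold over 10 in every library of the set.

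Other opened regions had peaks in all 6 single-mutant libraries and in neither WT library. One 14.8 kb upstream of Rcbtb2 had folds of 11.9 and 11.6 in HOXA9_KO, 10.4 and 11.6 in Bcat_KO and 10.6 and 6.51 in PRMT1_KO. Another lay 26.6 kb downstream of Tfcp2l1, a factor of pluripotent and kidney cells, with folds of 9.69 and 12.0 in HOXA9_KO, 11.0 and 11.7 in Bcat_KO and 7.39 and 6.54 in PRMT1_KO. The region near Srd5a2, a steroid reductase, had 10.2 and 12.0 in HOXA9_KO, 11.1 and 13.8 in Bcat_KO and 11.1 and 9.89 in PRMT1_KO. No peak was listed at these 3 sites in the dKO or in WT. Of the other named opened regions of Bcat_KO, the one near Heatr3 had folds of 9.50 and 16.5 and no peak in any other library, and the one near Cks1brt had 14.2 and 13.9 beside 4.10 in HOXA9_KO replicate 2.

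In HOXA9_KO, the opened regions of best rank lay near Rcbtb2, Adgrd1, Fam181b, Nmur1, Tfcp2l1, Ctsll3, Mettl25 and Jrkl. The one near Adgrd1, an adhesion receptor, had folds of 10.3 and 14.0 in HOXA9_KO, 8.95 and 7.09 in Bcat_KO and 10.8 and 10.4 in PRMT1_KO. Near Fam181b the folds were 10.4 and 16.6 in HOXA9_KO and 5.81 in Bcat_KO replicate 2, with no peak elsewhere. The PRMT1_KO regions, beside those near Dpy19l2, Tra2a, Pira2 and Adgrd1, lay near Oacyl, Xcl1, Dnttip2 and Map4k4. The region near Xcl1, the chemokine lymphotactin, had folds of 11.9 and 9.95 in PRMT1_KO, 7.91 and 9.22 in HOXA9_KO and 7.30 and 7.65 in Bcat_KO, with no WT peak.

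Chosen after their values were seen, 2 genes of haematopoietic stem cells had opened regions in Bcat_KO. Egfl7, the host gene of miR-126, had one 2.49 kb upstream with folds of 10.4 and 7.83 in HOXA9_KO, 10.2 and 8.93 in Bcat_KO, 9.19 and 6.61 in PRMT1_KO and 3.75 in WT replicate 1, and it was opened in HOXA9_KO too. A second Egfl7 region, 9.23 kb upstream, had folds of 6.90 and 8.38 in HOXA9_KO, 8.37 and 9.42 in Bcat_KO and 8.23 and 6.13 in PRMT1_KO, with no WT peak. Adgrg1, the adhesion receptor GPR56, had one 7.65 kb upstream with folds of 6.85 and 7.25 in HOXA9_KO, 8.37 and 7.88 in Bcat_KO, 5.06 and 6.85 in PRMT1_KO and 3.75 in WT replicate 1. Among the 287 regions near the 163 listed genes, 1 was called (0.348%, against 0.650% of all 18295), a site 21.2 kb upstream of Col1a2, a collagen gene of stromal cells, opened in Bcat_KO. Its folds were 8.52 and 9.24 in HOXA9_KO, 10.1 and 11.1 in Bcat_KO and 6.27 and 6.59 in PRMT1_KO, and it had no WT peak.

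Closed regions had modest folds in WT. In Bcat_KO the named ones lay near Marveld2, Zfp781, Ccdc7a, Klra10, Neurod6, Camk1g, Adcyap1r1 and Cdc123. Near Marveld2, which encodes tricellulin of epithelial junctions, the fold was 4.75 and unlisted in Bcat_KO, and 9.36 and 11.3 in WT. The Adcyap1r1 region, which overlaps 225 bases of the Gm34441 window printed above but not its start base and lies 35.3 kb from this PACAP receptor gene, was unlisted in Bcat_KO and had folds of 8.78 and 13.2 in HOXA9_KO, 8.45 and 6.59 in PRMT1_KO, 5.94 in the dKO and 8.51 and 7.45 in WT. A region 29.8 kb upstream of Neurod6 had no peak in Bcat_KO and 8.51 and 7.88 in WT. Near Klra10, an NK receptor of the Ly49 family, the folds were 4.75 and 3.58 in Bcat_KO and 8.03 and 7.57 in WT.

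In HOXA9_KO the closed regions of best rank lay near Cyp4a12a, Zfp600, Zfp972, C3ar1, Prdm2, Bcas1, F3 and Serpinb2. A region 6.80 kb upstream of C3ar1, the complement C3a receptor of myeloid cells, had no peak in HOXA9_KO, 7.77 and 8.49 in Bcat_KO, 11.6 and 13.0 in PRMT1_KO and 8.93 and 8.37 in WT. The region near Prdm2, a histone methyltransferase gene, had no peak in HOXA9_KO, 5.27 and 5.64 in Bcat_KO, 7.95 and 10.1 in PRMT1_KO and 7.84 and 7.35 in WT. The region near F3, tissue factor of blood clotting, had 4.24 and 4.72 in HOXA9_KO, 8.19 and 5.69 in Bcat_KO, 7.47 and 9.83 in PRMT1_KO and 8.01 and 8.04 in WT. Near Serpinb2, a plasminogen activator inhibitor of macrophages, HOXA9_KO had 4.10 in replicate 2 alone and WT had 6.93 and 9.56.

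All 6 closed regions of PRMT1_KO are named here, near Speer4c, Tmtc3, Klra3, Olfr1318, Cxadr and Odc1. Near Odc1, which starts polyamine synthesis, the fold was 3.00 and unlisted in PRMT1_KO, and 5.18 and 5.68 in WT. Near Klra3, another Ly49 receptor, it was 4.22 and unlisted in PRMT1_KO, and 7.97 and 7.28 in WT. The Olfr1318 region had no peak in PRMT1_KO and folds of 8.08 and 7.38 in WT.

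**Figure D5:**
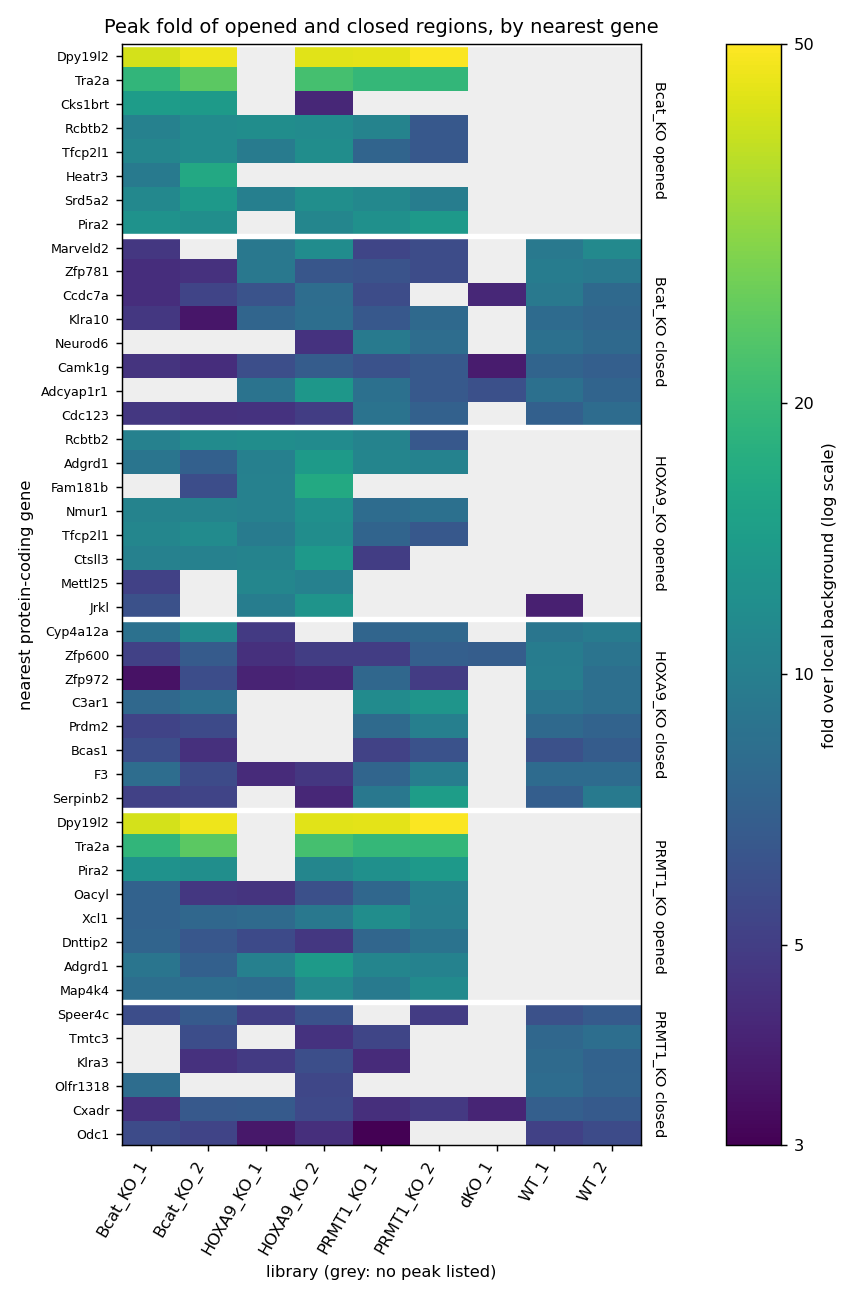
Peak fold over local background (colour, log scale) of the named opened and closed intergenic regions, labelled by nearest gene, in all 9 libraries; grey means no listed peak. Columns of a called mutant and of WT differ by the rule itself, and the regions near Dpy19l2, Tra2a and Pira2 have peaks in the same 5 libraries.

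Of the 119 called regions, 5 overlapped a RefSeq start window. They are 0.799% of the 626 with a window, against 0.645% of the 17669 without one, so the shares are close. Gm30296, near Moap1, was opened in Bcat_KO with folds of 8.59 and 9.22, beside 7.71 and 7.65 in HOXA9_KO, 7.40 and 6.81 in PRMT1_KO and no WT peak. Gm15448, near Pira2, was opened in Bcat_KO and PRMT1_KO and Gm39692, near Xcl1, in PRMT1_KO, while Gm34441 and Gm32687, near Zfp781, were closed in Bcat_KO.

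Regions seen in both libraries of 1 genotype and in no other paired library were counted in the shortened lists of that genotype. They numbered 31 of 4077 intergenic regions in HOXA9_KO (0.760%; 0.860% over all autosomal regions), 14 of 4198 in Bcat_KO (0.333%; 0.253% over all), 24 of 4408 in PRMT1_KO (0.544%; 0.407% over all) and 23 of 3750 in WT (0.613%; 0.336% over all). These shares were not tested.

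The dKO had 1 library, so its values carry no replicate error. It listed 1238 intergenic regions near genes, 12.2% of its regions (95% Wilson interval 11.6 to 12.8%). Among the 10639 strongest peaks of each of the other 8 libraries the share was 11.6 to 13.6%, with a mean of 12.6% ± 0.809 (SD, n = 8), a range that holds the dKO value. Of the regions found in all 8 other libraries, the dKO had a peak in 26.1% of the intergenic ones (24.6 to 27.7%), against 58.8% at gene ends, 29.8% inside genes and 31.7% beyond 50 kb. At 2.41 reads per kb, a missing dKO peak may lie below what the library could show. The intervals cover counting error only.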

How the data were processed

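The 9 ATAC-seq peak lists were used as deposited. Per the submitters' processing notes, reads were aligned with Bowtie2 2.4.2 to GRCm38/mm10 and handled with SAMtools 1.14 and Picard 2.27.4, and peaks were called with MACS2, 1 list per library. The deposited score of a peak and its summit offset were not used. The deposited fold enrichment, a ratio to the local background made by the authors, and the deposited −log10 p-value and −log10 q-value come from MACS2, with no normalization between libraries, so peaks were ranked within a list by −log10 p. Peaks sharing 1 bp were merged, and the nearest gene was taken from the RefSeq gene table of GRCm38.p6. Lists of the 8 paired libraries were shortened to 28325 peaks. Depth is inferred: fold and p of peaks with −log10 p under 30 gave whole reads within 0.002 for at least 99.9967% of them. Group values rest on 2 libraries. Tests were exact permutations over libraries (Python 3.11.15, scipy 1.17.1), with Benjamini-Hochberg adjustment over the 3 classes, checked on simulated data.

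Genes and regions named are the 10 of best mean rank, the 8 opened and 8 closed of best rank per mutant, the 5 strongest in the dKO, the 10 genes with most regions in all 8 libraries and up to 4 genes per list. In mean ranks, ranks beyond 28325 and missing peaks were set to 28326. The choice of regions and the 11 gene lists were made with earlier results of these data known. A motif search in 200 bases around summits was planned and not run, since it needs a genome, and RefSeq start windows were searched instead. Some marker genes are not reported here.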

Additional observations from a re-analysis of the deposited data

Results flagged for a closer look

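The detection of upstream minus downstream regions moved in opposite directions between genotypes. The mean was 1.01 points in PRMT1_KO, 0.466 in Bcat_KO, −0.593 in HOXA9_KO and −1.98 in WT (n = 2 each), with both libraries of a group on the same side of 0. The comparison of the 4 genotypes was chosen after these values were seen and is no independent test of them (exact permutation over 105 divisions, p = 0.00952). Over all alternatives its p lay between 0.00952 and 0.105.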

How the results depend on the processing

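Merging at 50% overlap (19 results) changed no test outcome and no count of opened or closed regions. The nearest minus farthest distance bin, which did not pass, was then −0.0294 points. Ranking on autosomes alone (17 results, without the number of regions and the dKO share) changed no test outcome. Closed regions in HOXA9_KO then numbered 27, against 26. With peaks of −log10 q of 5 or more, the number of intergenic regions differed by genotype (p = 0.0381, exact permutation), the detection difference was −1.84 points from regions inside genes, 1.39 from those beyond 50 kb (adjusted p = 0.0781, exact) and −1.74 for upstream minus downstream (p = 0.0234, exact). Opened regions then numbered 14 in Bcat_KO, 11 in HOXA9_KO and 10 in PRMT1_KO, closed ones 5 in Bcat_KO and 11 in HOXA9_KO, and the dKO share was 8.98%. Ranked by fold, the median rank differed by −0.754 points from regions inside genes and −1.72 from those beyond 50 kb (adjusted p = 0.0117, exact), the nearest minus farthest distance bin turned to −2.39 (p = 0.0156, exact), and 70 regions were opened in HOXA9_KO. With Gm and Rik genes counted as genes, the median rank differed by −0.506 points from regions beyond 50 kb (adjusted p = 0.00781, exact), and detection by −0.590 from regions inside genes. With lists as deposited, the genotype p of the share was 0.0667, the median rank difference from regions beyond 50 kb turned to 1.91 (adjusted p = 0.00781, exact), opened regions numbered 193, 164 and 131 in Bcat_KO, HOXA9_KO and PRMT1_KO, and closed ones 3 in Bcat_KO and 11 in HOXA9_KO. Longer mutant lists enter that count by construction; the cause of the other changes was not tested.

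Leaving out each library in turn, the p of the share ran from 0.00952 to 0.162, that of upstream minus downstream by genotype from 0.00952 to 0.105, opened regions from 85 to 129 in Bcat_KO, 102 to 156 in HOXA9_KO and 62 to 115 in PRMT1_KO, and closed ones from 28 to 87, 46 to 131 and 16 to 93. A lone library then stands for its group, which makes the rule easier to meet. Without WT replicate 2 the shortened lists also hold 35581 peaks in place of 28325, which changes the rule and every value of that setting. Replicate numbers did not pair the libraries: deviations of same-numbered libraries from their group means correlated at −0.0104 to 0.0332 over 3000 regions. With the replicate block, p was 0.0417 for the share, the Jaccard index and upstream minus downstream, and 0.167 for the number of regions, which changed no call. A region with no peak may be closed or may lie below what its list could show, and WT and dKO lists are the shallowest. The shortest listed peak also differed, from 126 bases in Bcat_KO replicate 2 to 191 in the dKO.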
